A study of Rattus norvegicus with 32 samples.

Results

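Gene expression was measured in mucosa of the intestine, and obese Zucker-Lepr fa/fa (ZO) rats that had received a probiotic were compared with Zucker lean Lepr +/fa (ZL) rats that had received a placebo. The members are the 16 arrays titled as a probiotic strain and the 4 titled as control placebo, 20 of the 32 arrays of the series, with 1 array per rat. All rats were male, and the labels give an age of 6 weeks for each, including those sampled before the intervention. Both groups were dosed by mouth every day for 30 days. ZO rats carry the *fa* allele of the leptin receptor gene on both chromosomes, and ZL rats, the controls, also carry it on a single chromosome. Per the methods, single *Lactobacillus* or *Bifidobacterium* strains or a mixture were given. The labels of the 16 rats do not say which, so that they formed 1 group. The groups differ in genotype and in treatment, and in this comparison these cannot be told apart. The other arrays are those of 4 ZO rats on the same placebo, and of 4 ZL and 4 ZO rats sampled at baseline, before any treatment.

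Leptin, a hormone of fat cells, restrains feeding through its receptor, and rats homozygous for *fa* overeat and become obese. Enterocytes, the absorptive cells of the mucosa, take up dietary fatty acids and either build them into triglycerides for export in chylomicrons or burn them by beta-oxidation in mitochondria and peroxisomes. Many genes of this oxidation are targets of PPARα, a nuclear receptor that is activated by fatty acids and binds, together with the retinoid X receptor, to a direct repeat of AGGTCA with a spacer of a single base. The mucosa also holds lamina propria with macrophages, mast cells and lymphocytes. Whole mucosa was measured, so fewer cells of a type and less RNA per cell cannot be told apart.

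Of the 17245 genes with a probe set of their own, the 13 enterocyte markers were at high levels, with array means from 11.88 to 12.17 on the log2 scale in these 20 rats. The array of ZL rat C13 stood apart in genes that vary along the gut. Its mean over 11 ileal genes was 8.55, against 10.86 to 10.92 in the other 3 ZL rats and 10.47 to 11.01 in the 16 ZO rats. Its mean over 10 genes of the proximal small intestine was 9.57, against 8.62 to 8.94 in the other 3 ZL rats and a median of 8.78 in the ZO rats, all of which were lower than C13. The array of ZO probiotic rat Z46 also stood apart, with 337 genes more than 1 log2 unit from the mean of the other 15, against 10 to 87 genes in those. Its means were the lowest of the 20 rats for cell division genes (5.79) and stroma genes (6.10). Calls below are therefore given with and without C13.

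In all, 613 of 29214 probe sets were higher (2.1%) and 747 lower (2.56%) in ZO probiotic than in ZL placebo rats (limma, threshold 0.05 on p values adjusted by Benjamini-Hochberg). Without C13 these were 321 (1.1%) and 363 (1.24%), and without ZL rat C16 they were 399 and 347. Counted in genes, 464 were higher (2.69%) and 595 lower (3.45%) with all arrays, 1059 in all (6.14%), and without C13 219 (1.27%) and 310 (1.8%). Both with and without C13, 195 were higher (1.13%) and 243 lower (1.41%), and 30 and 29 of them differed at least 2-fold. The levels of all 16 ZO rats lay above, or all below, those of all 4 ZL rats for 326 genes (1.89%). That held for 112 of the 195 higher and 112 of the 243 lower genes. Among the 154 genes chosen for description, 122 passed the test. In 58 of these the call also held without each ZL rat in turn, without Z46, and without each of 4 sets of ZO rats with neighbouring numbers. For the other 64 it did not hold in at least 1 of these fits, and the adjusted p without a single rat is given beside those that failed without it. Where no value without C13 is given, the call held without it. Counts of lists below are to be read against the shares of all genes. These are 2.69% higher and 3.45% lower with all arrays, and 1.27% and 1.8% without C13.

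The ZO probiotic rats were tested directly against the 4 ZO rats on placebo, which per the labels differ from them in treatment only. Of 29214 probe sets, 1 was higher (0.00342%), an unnamed one, and 0 lower, with 1205 at an unadjusted p under 0.05 (4.12%). None of the 438 genes that differed from ZL placebo with and without C13 passed this test, and 24 of them had an unadjusted p under 0.05. Their median absolute log2 difference between probiotic and placebo was 0.08, while against ZL placebo the medians were 0.56 for the 195 higher and -0.58 for the 243 lower genes. At baseline, on other arrays with 4 rats per group, 0 probe sets passed the test between ZO and ZL rats (limma, 3352 at an unadjusted p under 0.05, 11.5%). Smaller differences may have been missed there. The log2 difference at baseline was positive in 163 of the 195 higher genes (83.6%, against 55.1% of all genes), and negative in 166 of the 243 lower genes (68.3%, against 44.9%), with medians of 0.18 and -0.11.

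In the ZO probiotic rats, genes that oxidise fatty acids were higher. Of 19 measured genes of the mitochondrial pathway, 14 were higher and 0 lower with all arrays, against 2.69% and 3.45% of all genes, and 14 were higher without C13. Their median log2 fold change was 0.58, against 0.00 over all genes. Of 14 genes of the peroxisomal pathway, 8 were higher and 0 lower, both with and without C13, with a median of 0.60. The array means over both lists lay higher in all 16 ZO rats than in all 4 ZL rats. Without C16 the counts were 12 and 8, and without both C13 and C16 they were 7 and 4.

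*Eci1* encodes an isomerase that moves the double bond of unsaturated fatty acids so that oxidation can go on. Its level on the log2 scale was 8.52, 8.44, 9.07 and 8.09 in the ZL rats C11, C13, C15 and C16, an order kept below, and ranged from 10.07 to 11.10 with a median of 10.72 in the 16 ZO rats. All ZO rats lay above all ZL rats. The fold change was 4.49 (log2 2.17, standard error 0.23, adjusted p = 9.67e-07), and 4.39 without C13 (adjusted p = 1.94e-05). *Decr1*, the reductase of the same branch of the pathway, was at 7.95, 7.91, 8.26 and 7.57 in the ZL rats and between 9.02 and 9.86 with a median of 9.45 in the ZO rats. The groups were again apart, by 2.91-fold (adjusted p = 6.54e-05, and 0.000557 without C13). *Slc25a20*, the carrier that takes acylcarnitines into mitochondria, was 2.02-fold higher (log2 1.01, standard error 0.13, adjusted p = 1.58e-05). *Eci2*, a second isomerase, *Etfdh*, which passes electrons from the oxidation to the respiratory chain, and *Acaa2*, the thiolase of the last step, had log2 fold changes of 0.94, 0.78 and 0.73 (adjusted p = 0.00136, 0.00232 and 0.00178). All 6 calls held without each single ZL rat. The 5 genes of the list that did not pass ranged from -0.32 for *Echs1* to 0.37 for *Acads*.

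In the peroxisomal pathway the largest difference was that of *Slc27a2*, which takes up very long-chain fatty acids and joins them to coenzyme A. Its level was 6.22, 6.60, 8.09 and 6.17 in the ZL rats and between 7.52 and 9.90 with a median of 9.27 in the ZO rats. Here the groups overlapped, since ZL rat C15 lay above the lowest ZO rat. The fold change was 4.78 (log2 2.26, standard error 0.46, adjusted p = 0.00278, and 0.017 without C13). *Pex11a*, which acts in the division of peroxisomes, *Ehhadh*, the bifunctional enzyme of the pathway, and *Ech1*, an isomerase, had log2 fold changes of 1.29, 1.22 and 1.03. In each of these 3 genes the 16 ZO rats lay above the 4 ZL rats (adjusted p = 6.54e-05, 6.6e-05 and 1.99e-06). *Crot*, a carnitine acyltransferase, and *Abcd3*, a transporter of the peroxisomal membrane, followed at 0.74 and 0.74 (adjusted p = 0.00435 and 1.76e-05).

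**Figure D1:**
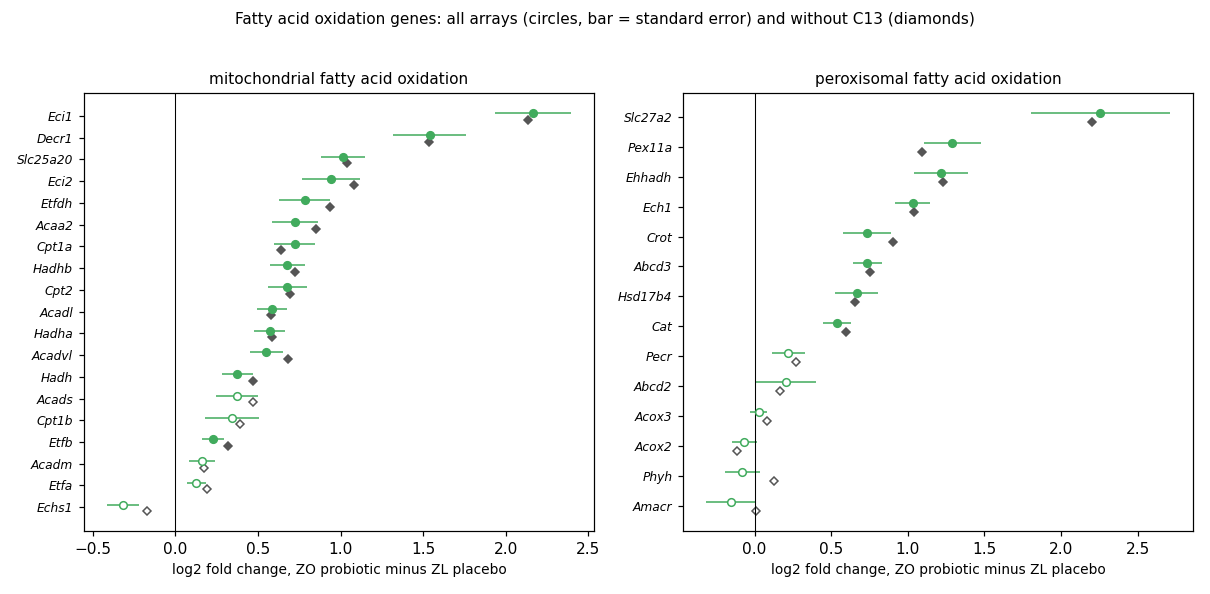
Log2 fold change (x axis, ZO probiotic minus ZL placebo) of each measured gene of the mitochondrial list (19 genes) and the peroxisomal list (14 genes). Circles use all arrays with bars of 1 standard error, diamonds leave out C13, and filled symbols passed the test (adjusted p under 0.05, limma). The 14 and 8 genes past the threshold with all arrays all lie to the right of 0 and keep filled diamonds.

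The DNA before the start of these genes was read for the element to which PPARα binds. The letters AGGTCA, any base, AGGTCA were searched on both strands with at most 2 mismatches in the 250 bases before the start of each gene (RefSeq, GRCr8). A match was found in 853 of 27457 genes (3.11%). Of the 33 genes of both oxidation lists, 28 had a sequence and 6 of them a match, namely *Slc27a2*, *Acadvl*, *Cat*, *Amacr*, *Echs1* and *Etfa*, of which the last 3 did not pass the test. Of the 195 higher genes, 166 had a sequence and 12 a match (7.23%), and of the 243 lower genes 192 and 4 (2.08%). A match is a description of the letters and not of binding. The 3 promoters below, in lower case with the match in capitals, are those of the peroxisomal gene with the largest difference and of the 2 higher genes whose match has a single mismatch.
Slc27a2: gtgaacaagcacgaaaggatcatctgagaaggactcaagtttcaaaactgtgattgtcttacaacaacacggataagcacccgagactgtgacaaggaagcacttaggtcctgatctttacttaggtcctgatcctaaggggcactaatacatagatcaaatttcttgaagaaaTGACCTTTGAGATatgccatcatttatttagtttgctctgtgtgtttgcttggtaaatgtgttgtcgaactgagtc
Acadvl: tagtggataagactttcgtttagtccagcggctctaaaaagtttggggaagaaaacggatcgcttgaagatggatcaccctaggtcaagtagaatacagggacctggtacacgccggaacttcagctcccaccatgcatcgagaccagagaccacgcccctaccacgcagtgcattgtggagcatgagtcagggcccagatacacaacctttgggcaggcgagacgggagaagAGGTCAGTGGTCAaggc
Fabp1: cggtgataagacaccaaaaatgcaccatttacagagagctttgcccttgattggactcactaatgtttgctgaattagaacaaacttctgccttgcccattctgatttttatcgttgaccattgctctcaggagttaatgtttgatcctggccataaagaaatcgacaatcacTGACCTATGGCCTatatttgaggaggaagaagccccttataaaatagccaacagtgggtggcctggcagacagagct
They lie at chr3:134257851-134258100 on the plus strand, chr10:55236706-55236955 on the minus strand and chr4:104749090-104749339 on the plus strand of GRCr8, and are written 5′ to 3′ along the gene. Counted from the start of the gene, the match of *Slc27a2* begins at -76 and that of *Fabp1* at -77, both read on the strand opposite to the gene, and that of *Acadvl* at -17 on the strand of the gene. *Acadvl*, the dehydrogenase of the first step for long chains, was shown for its sequence and chosen after its values were seen. Its level was 9.59, 10.21, 9.63 and 9.82 in the ZL rats and between 10.18 and 10.57 with a median of 10.35 in the ZO rats, with an overlap that C13 made (log2 fold change 0.55, adjusted p = 0.00108, and 0.000157 without C13). *Fabp1*, the liver-type fatty acid-binding protein of enterocytes, was at 12.27, 12.39, 12.29 and 12.25 and between 12.23 and 12.56 with a median of 12.48. These ranges overlapped, and the log2 fold change was 0.17 (adjusted p = 0.0327, but 0.0839, 0.0879 and 0.134 without C11, C15 or C16).

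Among 8 acyl-CoA thioesterases, which release free fatty acids from coenzyme A, 2 were higher, with and without C13, and 6 did not pass. *Acot1*, the cytosolic long-chain enzyme, was at 3.61, 3.71, 3.62 and 3.54 in the ZL rats and ranged from 4.09 to 7.36 with a median of 6.31 in the ZO rats. The ZL rats were close together, at low levels under the array medians of 4.79 to 4.97. All ZO rats lay above the ZL rats, by 5.63-fold on average (log2 2.49, standard error 0.38, adjusted p = 0.000117, and 0.000838 without C13). *Acot2*, its mitochondrial relative, was 2.63-fold higher (adjusted p = 0.000102). The genes are close copies, and how far the probes tell them apart is not known here.

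Of 16 PPAR targets outside the oxidation pathways, 6 were higher and 1 lower, and without C13 5 and 0. *Angptl4*, a secreted inhibitor of lipoprotein lipase, stood at 7.37, 7.75, 8.41 and 7.41 in the ZL rats and between 8.96 and 10.21 with a median of 9.68 in the ZO rats. The groups did not overlap, and the fold change was 3.86 (log2 1.95, standard error 0.30, adjusted p = 0.000119, and 0.000989 without C13). *Vnn1*, a pantetheinase that recycles the vitamin part of coenzyme A, was at 9.69, 9.57, 10.50 and 10.38 and between 11.22 and 11.79 with a median of 11.55. Its ZO rats were close together, with a standard deviation of 0.15, and lay above the ZL rats by 2.87-fold (adjusted p = 1.39e-06, and 3.7e-05 without C13). *Plin2*, a coat protein of lipid droplets, was 2.73-fold higher with no overlap (adjusted p = 0.00566), but 0.0523 without C16. *Mgll*, the monoglyceride lipase, and *Ppara*, which encodes PPARα itself, had log2 fold changes of 1.24 and 0.85 (adjusted p = 0.00727 and 0.000119). *Acsl3*, an acyl-CoA synthetase, had 0.47 (adjusted p = 0.0206), but 0.0527, 0.127 and 0.0517 without C11, C13 or C15. The lower gene was *Ppard*, another receptor of the family, and it did not pass without C13 (log2 fold change -0.29, adjusted p = 0.0391 and 0.174).

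The largest difference of all genes was that of *Hsd3b2*, a 3-beta-hydroxysteroid dehydrogenase of steroid hormone synthesis. Its level was 4.47, 3.81, 5.57 and 4.33 in the ZL rats and between 7.43 and 9.09 with a median of 8.60 in the ZO rats. The highest ZL rat, C15, was still below the lowest ZO rat. The fold change was 14.7 (log2 3.87, standard error 0.38, adjusted p = 3.37e-07), and 12.4 without C13 (adjusted p = 1.13e-05). It belongs to a family of near-identical genes, so other members may add to the signal of its probes. Of 17 steroid dehydrogenases and aldo-keto reductases, 4 were higher and 1 lower, but without C13 only *Hsd3b2* and *Hsd17b13*, an enzyme of lipid droplets (log2 fold change 1.06, adjusted p = 0.000309). *Hsd11b2*, which inactivates glucocorticoids, had 1.08, and 0.51 without C13 (adjusted p = 0.041, but 0.418 and 0.145 without C13 or C16). *Hsd17b6* and *Akr1c14*, with 0.32 and -0.33, likewise failed without C13 (0.198 and 0.13) or C16 (0.0969 and 0.0648).

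*Chrna2*, a subunit of nicotinic acetylcholine receptors, was at 4.30, 3.70, 4.36 and 4.26 in the ZL rats and between 5.58 and 7.30 with a median of 6.59 in the ZO rats. C13 was the lowest of all, and without it the fold change went from 4.93 (adjusted p = 1.01e-06) to 4.44 (adjusted p = 2.85e-05). *Spmip11*, named for a protein of the sperm tail, was 3.89-fold higher with no overlap (adjusted p = 5.65e-07), and *Abhd3*, a phospholipase, 4.24-fold (adjusted p = 0.00017). *Abhd3* overlapped only through C13, at 8.32, and without that rat its fold change was 5.57. *Cmpk2*, a mitochondrial nucleotide kinase, and *Nceh1*, a hydrolase of cholesterol esters, had log2 fold changes of 1.62 and 1.58, with all 16 ZO rats above all 4 ZL rats (adjusted p = 5.14e-05 and 0.000202). *Spink1*, a trypsin inhibitor, overlapped through C11 and was 3.16-fold higher, but 2.03-fold without C13, whose level of 4.08 was the lowest (adjusted p = 0.00108 and 0.0123).

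**Figure D2:**
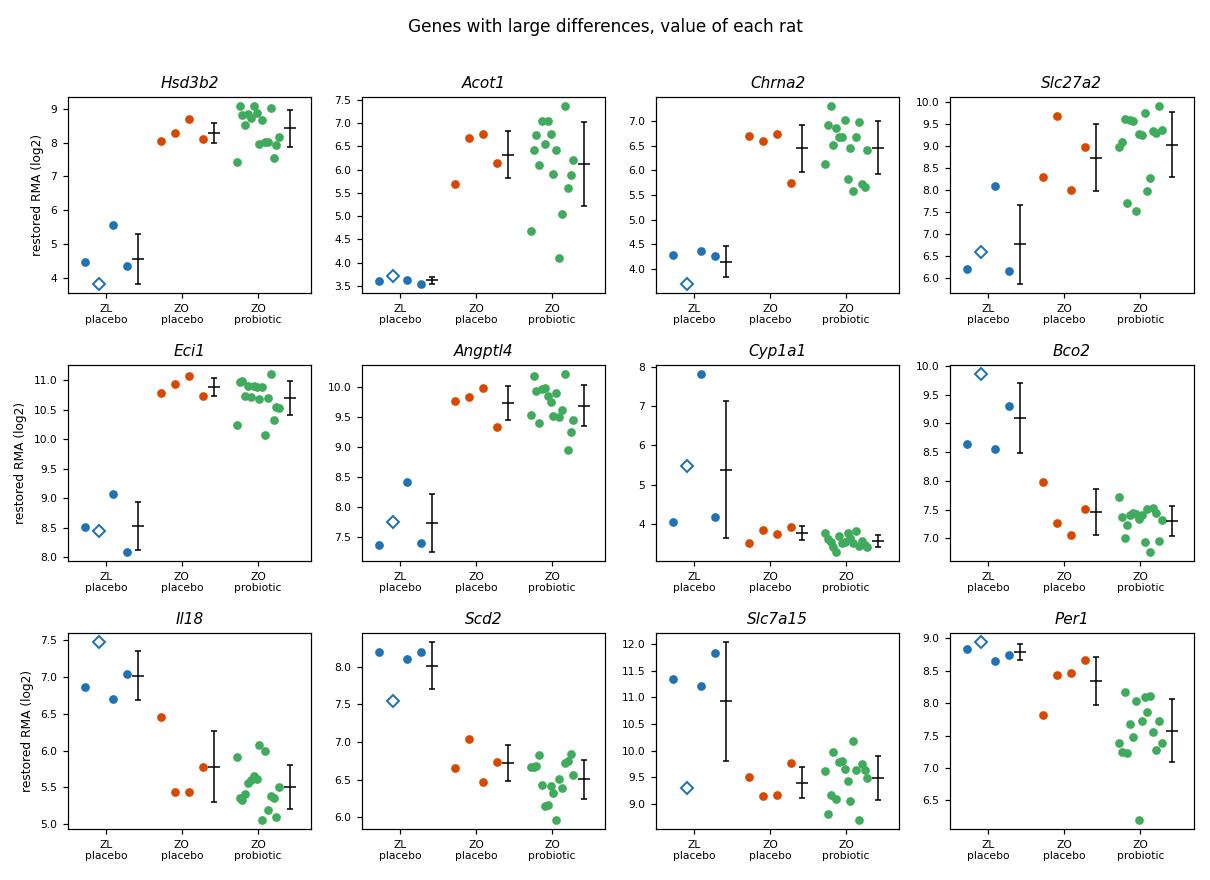
Restored RMA value (y axis, log2) of each rat for 12 genes in ZL placebo (4 rats, C13 as an open diamond), ZO placebo (4 rats) and ZO probiotic (16 rats); bars show the mean ± 1 SD of each group. In *Hsd3b2*, *Acot1*, *Chrna2*, *Eci1* and *Angptl4* the 16 ZO probiotic rats lie above the 4 ZL rats, in *Cyp1a1*, *Bco2*, *Il18*, *Scd2* and *Per1* below them, and *Slc27a2* and *Slc7a15* overlap.

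Genes that make or alter fatty acids and carotenoids moved in both directions. Of 13 genes that synthesise and desaturate fatty acids, 1 was higher and 2 lower with all arrays, and 2 and 2 without C13. *Acacb*, whose product malonyl-CoA restrains the entry of fatty acids into mitochondria, was 2.41-fold higher with no overlap (adjusted p = 0.00051). *Scd2*, a desaturase that makes monounsaturated fatty acids, was at 8.20, 7.55, 8.10 and 8.20 in the ZL rats and between 5.96 and 6.84 with a median of 6.54 in the ZO rats. All ZO rats lay below the lowest ZL rat, which was C13, and the level was 2.84-fold lower (log2 -1.51, standard error 0.26, adjusted p = 0.00054, and 0.000953 without C13). *Fads1*, a desaturase of polyunsaturated fatty acids, had -0.92, also with no overlap (adjusted p = 0.00081). Of 16 genes of cholesterol synthesis and uptake none passed (median log2 fold change -0.02). *Insig1* and *Msmo1*, with the smallest p in that list, had 0.33 and -0.34 (adjusted p = 0.49 and 0.428).

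*Bco2*, the mitochondrial enzyme that cleaves carotenoids off centre, was at 8.64, 9.86, 8.56 and 9.29 in the ZL rats and between 6.76 and 7.73 with a median of 7.39 in the ZO rats. The ZO rats were all lower, by 3.44-fold (log2 -1.78, standard error 0.18, adjusted p = 5.65e-07), and by 2.88-fold without C13 (adjusted p = 1.48e-05). A second probe set of *Bco2*, with a mean level of 2.84, had a log2 fold change of -0.40 (adjusted p = 0.0131). Of 20 genes of carotenoid and retinoid metabolism, 2 were higher and 2 lower, and 2 and 1 without C13 (median log2 fold change -0.01 with all arrays). The higher genes were *Retsat*, a retinol saturase (0.80, adjusted p = 0.000134), and *Dhrs3*, which reduces retinal (0.45, adjusted p = 0.0168, but 0.153 without C16). The other lower gene, *Lrat*, which esterifies retinol, had -0.74 (adjusted p = 0.0298, but 0.139 and 0.109 without C13 or C16).

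Of 15 genes of fat absorption and chylomicron assembly, 3 were higher and 1 lower. Without C13 2 were higher, *Fabp1* and *Apoa4*, an apolipoprotein of chylomicrons (log2 fold change 0.38, adjusted p = 0.035), and without C16 none passed (*Apoa4*, adjusted p = 0.0722, and 0.16 and 0.101 without C11 or C15). *Lipe*, the hormone-sensitive lipase, had 0.54 (adjusted p = 0.0183, but 0.0611, 0.0561 and 0.0866 without C11, C13 or C16), and its second probe set 0.27 (adjusted p = 0.262). The lower gene, *Scarb1*, a receptor for lipoproteins, was at 8.21, 11.10, 8.40 and 10.10 in the ZL rats and between 6.34 and 9.08 with a median of 7.82 in the ZO rats. C13 was the highest and C16 the next, and the adjusted p went from 0.0288 to 0.265 and 0.144 without each. *Fbp1*, the gluconeogenic bisphosphatase, was the gene of sugar metabolism that passed with all arrays (0.63, adjusted p = 0.00114, 1 of 10 in its list), and 3 of the 10 were higher without C13. *Asns*, the asparagine synthetase induced by the stress factor ATF4, was 2.48-fold higher with no overlap (adjusted p = 0.00126). In its list of 16 genes 4 were higher and 0 lower, and without C13 2, *Asns* and *Ddit3*, a stress transcription factor (0.47, adjusted p = 0.0157). That of *Ddit3* was 0.0746 without C11 and 0.0992 without C15. *Cth*, of cysteine synthesis, and *Mthfd2*, of mitochondrial folate metabolism, had 0.44 and 0.54, with adjusted p of 0.264 and 0.135 without C13 and 0.0698 and 0.124 without C16, and *Mthfd2* 0.106, 0.0726 and 0.0575 without C11, C15 or Z46.

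Several genes that handle foreign compounds and oxidants were lower. *Cyp1a1*, the cytochrome P450 induced through the aryl hydrocarbon receptor, was at 4.06, 5.48, 7.81 and 4.19 in the ZL rats and between 3.29 and 3.81 with a median of 3.54 in the ZO rats. The ZO rats lay close together and below every ZL rat, while the ZL rats were spread, with C15 the highest. The levels of the ZO rats were low, under the array medians of 4.79 to 4.97. How far this limits their spread and the fold change was not tested. The level was 3.52-fold lower (log2 -1.81, standard error 0.35, adjusted p = 0.00163, and 0.0101 without C13), and the log2 fold change was -1.01 without C15 (adjusted p = 0.00856). Of 15 NRF2 antioxidant genes, 3 were lower and 0 higher, and 4 lower without C13 (median -0.13 on the log2 scale). *Gpx2*, the glutathione peroxidase of the gut epithelium, was at 11.15, 11.14, 11.17 and 11.87 and between 9.75 and 10.87 with a median of 10.12, with all ZO rats lower, by 2.27-fold (adjusted p = 1.3e-05, and 5.6e-05 without C13). *Txnrd1*, a thioredoxin reductase, had -0.65, also with no overlap (adjusted p = 0.00232). *Nqo1*, a quinone reductase, had -0.99 (adjusted p = 0.0264), but 0.0654, 0.0924 and 0.232 without C11, C15 or C16. The glutathione S-transferase gene *Gstt3* was 2.15-fold lower with no overlap (adjusted p = 1.38e-05), and *Ugt2b1*, a glucuronosyltransferase, 2.42-fold lower (adjusted p = 0.000662). *Ugt2b1* overlapped only through C13, and its log2 fold change was -1.66 without that rat. Of 18 glutathione S-transferases, 2 were higher and 2 lower, but without C13 only the 2 lower ones, *Gstt3* and *Gstm2* (the latter -0.52, adjusted p = 0.0256, but 0.0698, 0.113 and 0.102 without C11, C15 or C16). The higher ones, *Gstm1* and *Gstm5*, had 0.55 and 0.62, with adjusted p of 0.181 and 0.0936 without C13 and, for *Gstm5*, 0.0786 without C16. They are close copies.

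Several amino acid transporters were lower. Of 16, 7 were lower and 0 higher, and 5 lower without C13 or without C16. The mean over the list was lower in all 16 ZO rats, from 9.78 to 10.02, than in the 4 ZL rats, at 10.06 to 10.41. *Slc7a15*, a member of the family of cationic and neutral amino acid carriers, was at 11.35, 9.31, 11.21 and 11.82 in the ZL rats and between 8.70 and 10.18 with a median of 9.63 in the ZO rats. Only C13 lay within the range of the ZO rats, and without it the log2 fold change went from -1.43 to -1.97 (adjusted p = 0.00316 and 2.85e-05). *Slc7a7* and *Slc43a2*, which carry amino acids across the basolateral membrane, had -0.64 and -0.58 (adjusted p = 0.000584 and 0.00189), and their calls held without each ZL rat. *Slc6a14* and *Slc7a8* had -0.89 and -0.81 with no overlap (adjusted p = 0.0139 and 0.00615), but *Slc6a14* did not pass without C11 (0.0569) or C16 (0.051) nor *Slc7a8* without C13 (0.0696). *Slc36a1* had -0.70 (adjusted p = 0.0304, but 0.162, 0.0582 and 0.114 without C13, C15 or C16).

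In 4 further genes with large falls, C11, C15 and C16 lay above all ZO rats and C13 did not. *Slc16a14*, of the monocarboxylate transporter family, was at 8.80, 7.07, 8.51 and 8.87 in the ZL rats and between 6.26 and 7.52 with a median of 6.64 in the ZO rats. *Ppil6*, of the cyclophilin family, was at 8.42, 6.68, 7.88 and 8.63 and between 5.62 and 6.92 with a median of 6.47. In both, C13 alone lay within the range of the ZO rats, and without it the log2 fold changes went from -1.52 to -1.93 and from -1.46 to -1.86 (adjusted p = 2.85e-05 and 2.85e-05). *Sord*, the sorbitol dehydrogenase, had -1.48 (adjusted p = 0.00649) but -0.80 without C16 (adjusted p = 0.0982), whose level of 9.98 was the highest. *Has2*, which makes hyaluronan, had -1.41 (adjusted p = 0.0452). C16 stood at 9.84 and the other ZL rats between 5.18 and 6.41, and without C16 the log2 fold change was -0.45 (adjusted p = 0.498). The adjusted p was 0.0533 without C15 and 0.0525 without Z46. *Apol7b*, of the apolipoprotein L family, overlapped through C11 alone and was 2.66-fold lower (adjusted p = 0.00271, and 0.0369 without C13).

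Several genes of cytokines and cytokine signalling were lower. *Il18*, an epithelial cytokine of the IL-1 family, was at 6.86, 7.48, 6.70 and 7.05 in the ZL rats and between 5.05 and 6.08 with a median of 5.46 in the ZO rats. All ZO rats were lower, by 2.86-fold (log2 -1.52, standard error 0.19, adjusted p = 7.24e-06, and 0.000177 without C13). *Il33*, an alarmin of the same family, was at 8.09, 9.02, 7.88 and 8.22 and between 6.94 and 7.69 with a median of 7.33, with no overlap. C13 was the highest, and without it the log2 fold change of *Il33* went from -0.99 to -0.76 (adjusted p = 0.000649 and 0.0127). These were 2 of the 4 lower genes among 22 of NF-kB feedback and inflammatory cytokines, with 0 higher. The others, *Tgfb1* and *Il10*, which restrain immune cells, had -0.54 and -0.46 (adjusted p = 0.0459 and 0.0398), but 0.171 and 0.353 without C13 and 0.136 and 0.117 without C15, and *Tgfb1* 0.162 without C16 and 0.0584 without Z46. The levels of *Il10* were low, at 3.48, 4.19, 3.69 and 3.06 in the ZL rats and between 2.77 and 3.42 in the ZO rats.

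*Socs1* and *Cish*, feedback inhibitors of cytokine and leptin receptors that signal through JAK and STAT proteins, were lower in all 16 ZO rats than in all 4 ZL rats. *Socs1* was at 7.66, 8.82, 7.67 and 8.35 in the ZL rats and between 6.31 and 7.35 with a median of 6.87 in the ZO rats, 2.4-fold lower (adjusted p = 0.00114, and 0.0196 without C13). *Cish* was at 6.90, 8.16, 7.12 and 8.14 and between 6.01 and 6.88 with a median of 6.51, 2.15-fold lower (adjusted p = 0.000446, and 0.00819 without C13). In both genes C13 and C16 were the highest ZL rats. Of 10 genes of leptin receptor signalling, 3 were lower and 0 higher, and without C13 these 2. *Jak2*, the kinase of the pathway, had -0.21 (adjusted p = 0.0391, but 0.0701, 0.0554 and 0.344 without C13, C15 or C16). The leptin gene itself had 0.89 (adjusted p = 0.0379, but 0.0883, 0.131, 0.103 and 0.0618 without C11, C13, C15 or C16).

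Genes that make prostaglandins and leukotrienes, lipid mediators made from arachidonic acid, were lower in part, and most of these calls rested on C16. Of 21 measured, 6 were lower and 2 higher with all arrays, and 7 and 2 without C13, and the median log2 fold change was -0.16. Without C16, only 2 of the 21 passed in either direction. *Alox5*, the 5-lipoxygenase that begins leukotriene synthesis, was at 5.97, 6.23, 6.61 and 7.92 in the ZL rats and between 4.44 and 6.03 with a median of 5.42 in the ZO rats. C16 was far above, and C11 lay within the range of the ZO rats. The log2 fold change was -1.26 (standard error 0.25, adjusted p = 0.00278), -1.41 without C13 (adjusted p = 0.00474) and -0.84 without C16 (adjusted p = 0.0522). Its partner *Alox5ap* was at 7.68, 7.89, 7.94 and 9.22 and between 6.15 and 7.89 with a median of 6.99, with a log2 fold change of -1.16 (adjusted p = 0.00336, 0.00804 without C13 and 0.0596 without C16). *Ptgs1*, the constitutive cyclooxygenase, was at 7.33, 7.66, 8.08 and 8.80 and between 5.81 and 7.51 with a median of 6.94. Its log2 fold change was -1.07 (adjusted p = 0.0112, 0.0222 without C13 and 0.12 without C16). The synthases *Tbxas1*, for thromboxane, and *Hpgds*, for prostaglandin D2, had -0.94 and -0.95 (adjusted p = 0.00419 and 0.0276, but 0.0714 and 0.122 without C16). *Hpgds* also did not pass without C13 (0.0979) or C15 (0.0841). Of the higher genes, *Ptger3*, a receptor of prostaglandin E2, had 0.89 and held without each ZL rat (adjusted p = 0.00275, and 0.0397 without C13).

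Lists of lamina propria cell markers also had medians below 0. Of 14 macrophage markers 2 were lower with all arrays and 0 without C13 (median log2 fold change -0.55), and of 11 dendritic cell markers 2 and 0 (median -0.21). Without C11, 6 of the macrophage and 3 of the dendritic cell markers passed. The mean over the macrophage list was 6.16, 6.72, 6.76 and 6.77 in the ZL rats and 5.59 to 6.64 in the ZO rats. Over 12 mast cell markers it was 4.50, 4.95, 4.77 and 5.04 in the ZL rats and 4.12 to 4.73 in the ZO rats. Over 13 stroma genes, none of which passed (median -0.52), it was 7.04, 7.33, 8.13 and 8.02 in the ZL rats and 6.10 to 7.93 in the ZO rats. In the macrophage and stroma lists C11 had the lowest mean of the ZL rats. The part of these cells in the differences of the eicosanoid and cytokine genes was not tested. The markers that passed were *Itgam* and *Cd68* of macrophages (-0.89 and -0.73, adjusted p = 0.00628 and 0.0412) and *Itgax* and *Flt3* of dendritic cells (-0.99 and -0.78, adjusted p = 0.00433 and 0.019). Without C13 their adjusted p were 0.0605, 0.176, 0.0665 and 0.115, without C16 *Cd68* and *Flt3* had 0.16 and 0.0966, and without C15 0.103 and 0.0621. *Cd68* had 0.0524 without Z46.

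Of 16 markers of T cells and cytotoxic lymphocytes, 5 were lower and 0 higher, and 1 was lower without C13. That gene was *Klrb1b*, an inhibitory receptor of killer cells, at 6.32, 7.24, 6.10 and 6.74 in the ZL rats and between 5.11 and 5.84 with a median of 5.36 in the ZO rats. The groups did not overlap, and the level was 2.25-fold lower (log2 -1.17, standard error 0.14, adjusted p = 7.39e-06, and 0.000147 without C13). *Il7r*, *Nkg7*, *Prf1* and *Klrd1* had -1.06, -0.58, -0.55 and -0.39, with adjusted p of 0.134, 0.0969, 0.331 and 0.148 without C13. Without C16 *Il7r*, *Nkg7* and *Prf1* had 0.0969, 0.129 and 0.117, without C15 *Il7r* and *Klrd1* had 0.0923 and 0.0672, and without C11 *Prf1* and *Klrd1* both had 0.0792. Of 12 mast cell markers 4 were lower and 0 higher, and without C13 2. *Mcpt10*, a protease of mast cells, had -0.70 (adjusted p = 0.00145, and 0.0171 without C13), and *Kit*, their growth factor receptor, -0.39 (adjusted p = 0.0433, but 0.0559, 0.14, 0.214 and 0.0536 without C11, C15, C16 or Z46). *Mcpt1* had -1.74 (adjusted p = 0.032, but 0.14, 0.0731 and 0.169 without C13, C15 or C16). *Cma1*, a chymase, had -0.29 (adjusted p = 0.0101, but 0.0638 without C13). Among chemokines and their receptors 3 of 28 were lower, *Cxcl11*, *Ccr9* and *Ccr6*, and without C13 none passed (adjusted p = 0.0951, 0.137 and 0.122). Nor did *Ccr9* without C16 (0.143) or *Ccr6* without C15 (0.0698). Of 10 MHC class II genes, 10 B and plasma cell markers and 20 interferon-stimulated genes, 1 each passed. These were *RT1-DOb* and *Blk*, both lower and both lost without C13 (adjusted p = 0.195 and 0.101) or C16 (0.106 and 0.06), and *Isg15*, which was higher (1.00, adjusted p = 0.0136, and 0.0407 without C13, but 0.0625 without C15).

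**Figure D3:**
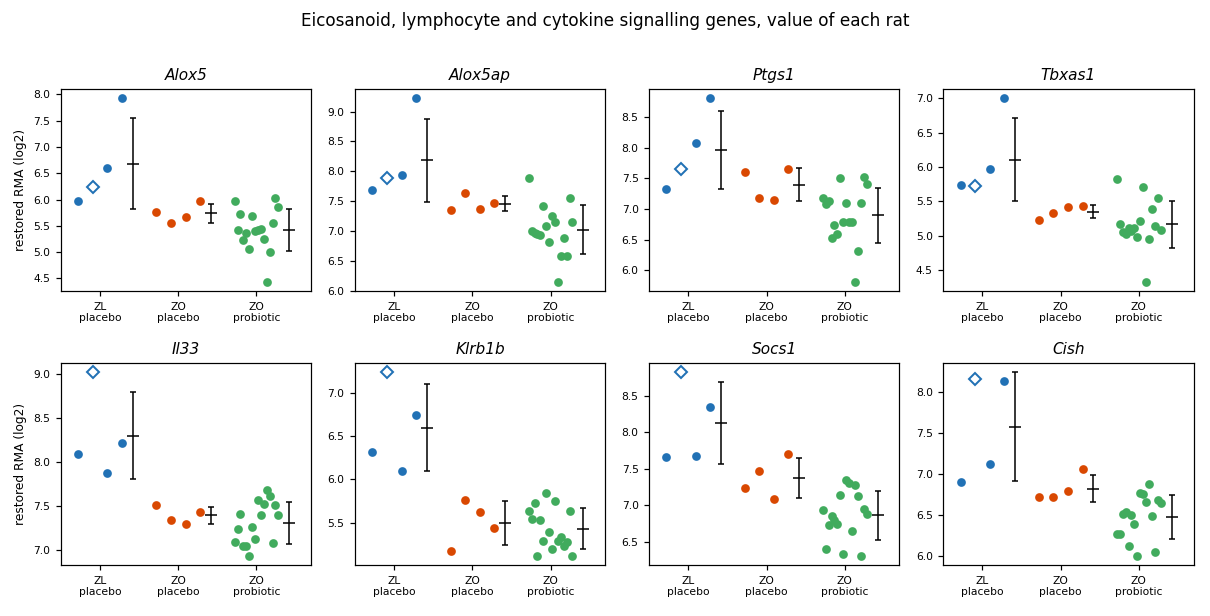
Restored RMA value (y axis, log2) of each rat for 8 genes of eicosanoid synthesis, lymphocytes and cytokine signalling in ZL placebo (4 rats, C13 as an open diamond), ZO placebo (4 rats) and ZO probiotic (16 rats); bars show the mean ± 1 SD of each group. C16 is the highest ZL rat in the 4 eicosanoid genes of the upper row and C13 in *Il33*, *Klrb1b*, *Socs1* and *Cish*.

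*Per1*, a repressor of the circadian clock that glucocorticoids induce, was at 8.83, 8.94, 8.64 and 8.74 in the ZL rats and ranged from 6.19 to 8.18 with a median of 7.62 in the ZO rats. The ZL rats lay close together and all above the ZO rats, and the level was 2.33-fold lower (log2 -1.22, standard error 0.25, adjusted p = 0.00307, and 0.0208 without C13). *Noct*, a rhythmic gene of lipid metabolism, was also lower with no overlap, at 9.14, 9.41, 8.99 and 9.49 and between 7.11 and 8.91 with a median of 8.03 (2.42-fold, adjusted p = 0.00431, and 0.027 without C13). *Klf9*, a transcription factor that glucocorticoids induce, was 2.2-fold lower with no overlap (adjusted p = 6.66e-05). A second probe set of *Klf9* had a log2 fold change of -0.81 (adjusted p = 0.0013). Of 14 clock genes, 3 were higher and 1 lower with all arrays, and without C13 1 and 1. The higher genes were *Nfil3* (0.94, adjusted p = 0.0184, and 0.134 without C13), *Npas2* (0.43, 0.0468 and 0.192) and *Clock* (0.32, 0.0277 and 0.0397, but 0.0605, 0.065 and 0.147 without C11, C15 or C16). *Npas2* also failed without C11 (0.0647), C15 (0.193) or Z46 (0.058). Of 13 glucocorticoid-induced genes 2 were lower, *Klf9* and *Klf15* (-0.38, adjusted p = 0.0413, but 0.118, 0.229 and 0.104 without C11, C13 or C16). The hour at which each rat was sampled is not given in the sources used here.

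A list of 11 genes holds those also followed by qRT-PCR. Of these, 3 were lower with and without C13, *Per1*, *Alox5ap* and *Ptgs1*, and 0 higher. Several of these genes had been chosen from these arrays, so the direction of the list is not independent evidence. Without C16 only *Per1* passed (adjusted p = 0.016). The others had log2 fold changes of -0.69 for *Adamdec1*, a lamina propria protease, -0.63 for the macrophage gene *Adgre1*, -0.51 for *Fkbp5*, -0.41 for *Slc7a11*, -0.36 for *Rgs16*, -0.22 for *Nfkbia*, -0.13 for *Nfkb1* and -0.06 for *Cd40*, with adjusted p between 0.147 and 0.857. *Adgre1* passed without C11 (-0.97, adjusted p = 0.0144), and with it 4 of the 11 were past the threshold in that fit. *Adamdec1* was at 9.16, 8.96, 10.42 and 10.25 in the ZL rats and between 6.52 and 10.03 with a median of 9.26 in the ZO rats, and C11 and C13 lay within the range of the ZO rats. A list of 25 genes described as lower with a probiotic, also chosen on these samples, held the same 3 lower genes, and of 4 described as higher none passed (adjusted p above 0.05, limma).

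**Figure D4:**
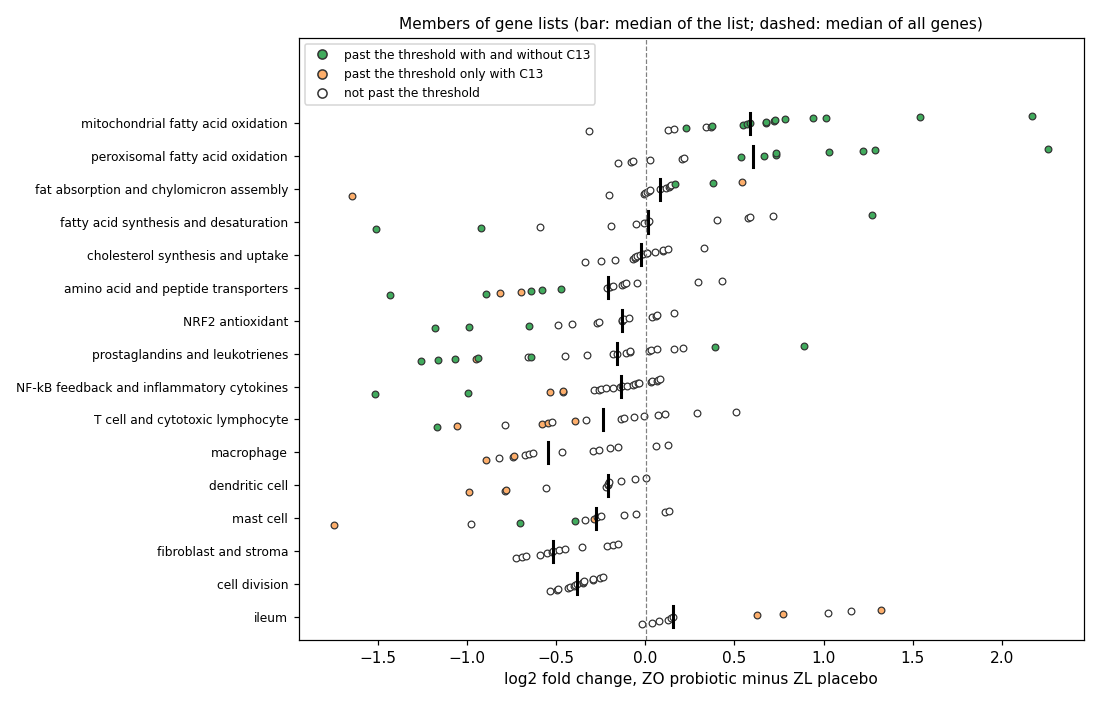
Log2 fold change (x axis, ZO probiotic minus ZL placebo) of each measured member of 16 gene lists (rows). Green points passed the test with and without C13, orange points only with C13, and white points did not pass (adjusted p under 0.05, limma); a black bar is the median of the list and the dashed line the median of all genes (0.00). The 2 oxidation lists lie to the right, and the macrophage, dendritic cell and ileum lists hold orange but no green points.

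In several lists none or few passed. None of 15 cell division genes passed, and all 15 had a negative log2 fold change, with a median of -0.38 (*Mcm2* -0.49 and *Pcna* -0.42, adjusted p = 0.18 and 0.178). The list mean was 7.24 to 7.72 in the ZL rats and 5.79 to 7.61 in the ZO rats, where Z46 was the lowest. None of 18 genes that sense lipopolysaccharide and bacterial sugars passed (median 0.01). Of them, *Ly96*, the partner of the lipopolysaccharide receptor, had -0.38 (adjusted p = 0.0754). None of 20 antimicrobial peptide genes passed with all arrays (median 0.01), and *Reg4* was higher without C13. Of 15 tight junction genes 1 was higher, *Tjp3* (0.44, adjusted p = 0.0033, and 0.046 without C13). None of 12 genes of MHC class I processing, 10 stem cell markers, 10 smooth muscle markers, 8 neuron and glia markers, 4 red blood cell genes and 11 colon genes passed with all arrays. Of 25 cytochromes P450 of families 1 to 4, 2 were lower and without C13 only *Cyp1a1*, while 4 passed without C11 and 4 without C15. The other, *Cyp4f18*, had -0.44 (adjusted p = 0.0297, but 0.309 and 0.0653 without C13 or C16). Of 8 genes of epithelial oxidases and nitric oxide synthase 1 was lower, *Duox1*, which makes hydrogen peroxide (-0.53, adjusted p = 0.0238, but 0.239 and 0.0965 without C13 or C16), and without C13 2 others. Of 11 pancreas genes 1 was higher, *Cela1*, an elastase (0.42, adjusted p = 0.00403, and 0.036 without C13). Of 13 enterocyte markers 3 were higher and 0 lower, and without C13 2 and 1 (*Cdx1*, a transcription factor, was lost with an adjusted p of 0.268), while 1 of the 13 passed when C11, C15 or C16 was left out. Of 8 adipose genes only *Lep* was higher.

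A further group of calls rested on C13, as the genes that vary along the gut did. In all, 621 of the 1059 genes that passed with all arrays did not pass without C13, and 91 others did. The median standard error went from 0.0899 with all arrays to 0.0999 without C13. Leaving out C16 gave 399 higher and 347 lower probe sets, against 321 and 363 without C13. How many of the 621 losses came from the values of C13 itself was not tested. *Pyy*, a hormone of distal enteroendocrine cells, was at 8.99, 5.17, 9.07 and 9.13 in the ZL rats and between 8.94 and 10.00 with a median of 9.41 in the ZO rats. With C13 the log2 fold change was 1.32 (adjusted p = 0.0391), and without it 0.35 (adjusted p = 0.425), and 0.0509 was its adjusted p without Z46. *Nts* and *Gcg*, hormones of the same region, went from 0.77 and 0.63 to 0.25 and 0.35 (adjusted p = 0.189 and 0.194). *Best2*, a channel of goblet cells, went from 1.75 to 1.39 (adjusted p = 0.00632 and 0.0771), and *Ugt2b7*, at 7.20 in C13 and between 2.68 and 2.89 with a median of 2.78 in the ZO rats, from -1.46 to -0.46 (adjusted p = 0.0184 and 0.0929, and 0.0559 without C16). *Slc37a2*, a sugar phosphate carrier, had -2.15 (adjusted p = 0.0297) and -1.17 without C13 (adjusted p = 0.326, and 0.108 without C16). Its value of 11.23 on C13 is 1 of 8 for which the place of the decimal point is in doubt. Of 11 ileal genes 3 were higher with C13 and 0 without it, of 15 enteroendocrine markers 3 and 0, and of 8 goblet cell markers 2 and 0 (*Spdef*, adjusted p = 0.0759). Of 10 genes of the proximal small intestine 1 was higher and 1 lower, and without C13 1 and 0. The lower gene, *Slc40a1*, the iron exporter, went from -1.14 to -0.64 (adjusted p = 0.00809 and 0.136).

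The 16 ZO probiotic rats differed among themselves in the leading genes. *Acot1* had the widest spread of the 15 genes with the largest rises, with a standard deviation of 0.90, its lowest level in Z45 and its highest in Z51. Over the rats numbered in the twenties, thirties, forties and fifties, 4 rats each, the means of *Acot1* were 5.99, 6.85, 5.37 and 6.26. For *Hsd3b2* they were 8.47, 8.88, 8.17 and 8.17, and for *Eci1* 10.73, 10.85, 10.58 and 10.63. Each of these means lay above the highest ZL rat. For *Per1* the means were 7.51, 7.34, 7.95 and 7.48, all below the lowest ZL rat. The labels do not say what the numbers stand for, and the differences between the sets were not tested.

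For *Eci1*, *Hsd3b2*, *Bco2* and *Il18* the ZO rats on placebo had levels near those of the ZO probiotic rats. For *Per1* they lay nearer to the ZL placebo rats. *Eci1* was at 10.88 ± 0.15 in ZO placebo (SD, n = 4) and 10.70 ± 0.29 in ZO probiotic rats (SD, n = 16), a log2 difference of -0.18 (standard error 0.23). *Hsd3b2* was at 8.29 ± 0.30 and 8.42 ± 0.55, a difference of 0.13 (standard error 0.38). *Bco2* had a difference of -0.16 (standard error 0.18) and *Il18* of -0.27 (standard error 0.19). Larger differences included those of *Per1*, -0.77 (standard error 0.25), *Noct*, -0.57 (0.27), *Socs1*, -0.51 (0.23), and *Ptgs1*, -0.50 (0.25). None of these passed the test over all probe sets. Over the 11 genes also followed by qRT-PCR, the median log2 difference of ZO probiotic from ZO placebo was -0.46. That of ZO placebo from ZL placebo was -0.10. Over the 25 genes described as lower with a probiotic, these medians were -0.43 and 0.04. Both lists were at least in part chosen on these samples. Against ZL placebo, the same ZL arrays, the ZO placebo rats had log2 fold changes of 2.35 for *Eci1*, 3.74 for *Hsd3b2*, -1.63 for *Bco2*, -1.24 for *Il18* and -0.45 for *Per1*. In the same order the ZO probiotic rats had 2.17, 3.87, -1.78, -1.52 and -1.22.

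The difference between ZO probiotic and ZL placebo rats was also tested against the difference between ZO and ZL rats at baseline. Of 29214 probe sets 13 passed (0.0445%), and 8 without C13 (0.0274%). They carry 10 gene names (0.058% of genes), 5 with a more positive and 5 with a more negative difference than at baseline. *Hsd3b2* was at 5.68 ± 1.13 in ZL and 5.90 ± 1.08 in ZO rats at baseline (SD, n = 4 each), where the groups overlapped, so that the difference grew by 3.66 on the log2 scale (standard error 0.61, adjusted p = 0.00782, and 0.0416 without C13). *Bco2* was at 8.46 ± 0.22 and 8.56 ± 0.39 at baseline, and its difference changed by -1.88 (standard error 0.30, adjusted p = 0.00689, and 0.0179 without C13). *Il18* was at 6.91 ± 0.31 and 7.17 ± 0.46, and changed by -1.78 (adjusted p = 0.00896, and 0.0481 without C13). *Gpx2* and *Gstt3* changed by -1.51 and -1.39 (adjusted p = 0.00782 and 0.00782, and 0.0179 and 0.0416 without C13). *Chrna2*, *Spmip11*, *Ndrg3*, of the NDRG family, and *Optn*, an autophagy receptor, changed by 2.12, 1.64, -0.85 and 0.45, and did not pass without C13 (adjusted p = 0.0801, 0.0801, 0.0801 and 0.0815). The olfactory receptor gene *Or2z2*, at levels near 3.3, changed by 0.51, from -0.39 at baseline to 0.12 (adjusted p = 0.0263, and 0.0416 without C13). The oxidation gene *Eci1*, with 0.78 at baseline, did not pass this test (change 1.39, adjusted p = 0.138).

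**Figure D5:**
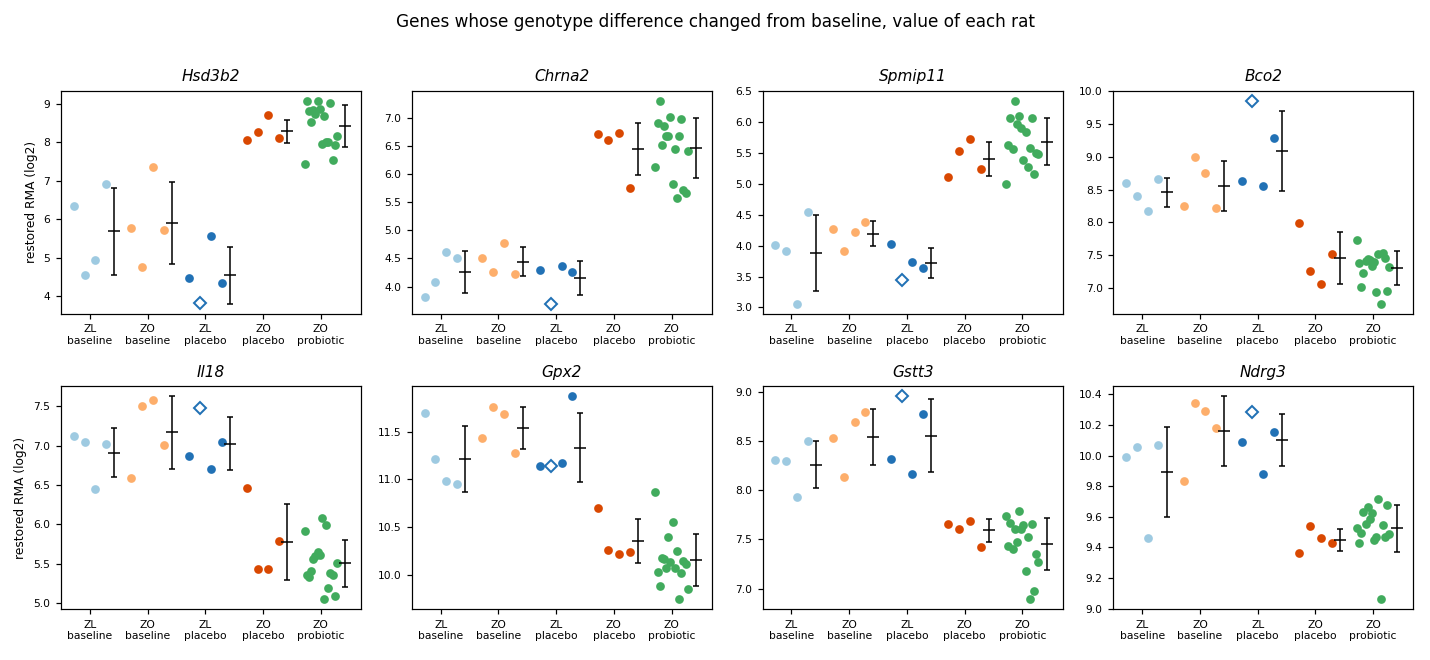
Restored RMA value (y axis, log2) of each rat in the 5 groups (ZL baseline, ZO baseline, ZL placebo and ZO placebo, 4 rats each, and ZO probiotic, 16 rats) for 8 of the 10 genes whose difference between ZO probiotic and ZL placebo differs from that between ZO and ZL at baseline (not drawn are *Optn* and *Or2z2*, in which the baseline groups did not overlap). Bars show the mean ± 1 SD and C13 is an open diamond; in all 8 panels the baseline groups overlap and the ZO probiotic rats lie apart from the ZL placebo rats.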

How the data were processed

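RNA of intestinal mucosa was hybridised to Affymetrix Rat Gene 1.1 ST arrays, on which the short probes of a transcript are summed up as the value of a probe set. Per the methods, the authors made the values with RMA. The methods name no log2 scale, and it was assumed here. Affymetrix Expression Console is the tool in the processing notes. The deposited score of a probe set is that value without its decimal point in all but 161 of 934848 values. The point was restored so that digit strings beginning with 10 to 13 gave values of 10 or more and all others values below 10, with log2 values from 1.58 to 13.5. Among 63652 values of 10 or more, 8 are closer to the rest of their probe set when read as 1 and a fraction, 4 of them on C13. The tests need values on the log2 scale and were run after this step. Array medians were 4.79 to 4.97. The number of rats sets the precision, and log2 fold changes had a median standard error of 0.0899.

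All 29214 probe sets of 32 arrays were fitted in 1 model of 5 group means in R 4.3.3 by limma 3.58.1 (moderated by eBayes), and p values were adjusted by the Benjamini-Hochberg method with a threshold of 0.05. Groups come from the labels, which name single rats and give no cage or litter. All per-sample columns were used (0 left out). A gene is given by the probe set that carries its symbol alone (18644 probe sets, 17245 genes), and where several do (879 genes) by the one with the highest mean. Several symbols stand for 962 probe sets, and 9608 have none. Symbols come from the platform table, of which 18460 gene IDs were found in RefSeq (GRCr8). Lists are described by counts and medians and were not tested as sets. Some genes are not reported here.

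The members, the 50 gene lists and the rules were chosen with earlier results of these data known. Named are the 15 largest rises and 15 largest falls past the threshold with and without C13, the genes of the study's qRT-PCR, per list up to 6 members past the threshold or, where none passed, 2 with the smallest p, 6 genes lost without C13, and up to 5 genes per direction of the test against baseline. The fits were run on simulated data of independent normal values, with the same spread in all arrays of a probe set. No array was made to stand apart, so this cannot show how the calls depend on C13, C16 or Z46. Alternatives were quantile normalization, centring on the array median, a filter on low values, 1 probe set per gene, a model of the 2 groups, array weights, regression without moderation, the last digit of the rat number or the order of deposit as a block, the other decimal place, and leaving out rats. Leaving out Z46, or C13 and C16 together, was added after seeing the data, as were the alternatives for the 2 other comparisons.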

Additional observations from a re-analysis of the deposited data

Results flagged for a closer look

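In the 4-rat groups behind the described genes, 184 groups of 154 genes, 15 held a rat far from the other 3 by Dixon's criterion. Chance flags about 1 in 20 groups when genes are chosen without regard to their values. These genes were chosen on the same arrays, some because their call was lost without C13, so that rate does not apply to them. In ZL placebo, C13 was far from the others in *Best2* (3.83), *Chrna2* (3.70), *Nts* (7.56), *Pyy* (5.17), *Scd2* (7.55) and *Spdef*, a goblet cell factor (8.95). C16 was far from the others in *Alox5ap* (9.22), *Gpx2* (11.87) and *Lep* (4.11). C15 was so in *Nceh1* (6.54) and C11 in *Tgfb1* (7.13). In ZO placebo these were Z16 in *Chrna2* (5.74) and Z11 in *Gpx2* (10.70), and in ZL baseline C3 in *Il18* (6.45) and *Ndrg3* (9.46).

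For 10 genes the log2 difference between ZO probiotic and ZL placebo rats differed from that between ZO and ZL rats at baseline (limma, adjusted p under 0.05). The change was 3.66 for *Hsd3b2*, 2.12 for *Chrna2*, 1.64 for *Spmip11*, 0.51 for *Or2z2* and 0.45 for *Optn*. It was -1.88 for *Bco2*, -1.78 for *Il18*, -1.51 for *Gpx2*, -1.39 for *Gstt3* and -0.85 for *Ndrg3*. Against the same ZL placebo arrays, ZO rats on placebo had 3.74 for *Hsd3b2* and -1.63 for *Bco2*, where ZO probiotic rats had 3.87 and -1.78.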

How the results depend on the processing

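With 4 ZL rats, the counts of probe sets depended most on which of these were used. The main counts of 613 higher and 747 lower became 321 to 607 and 347 to 891 when single ZL rats were left out, the lowest without C13 and C16, and 81 and 46 without both. They were within 1.5 times under all other settings, 514 and 751 with a replicate block made of final digits of rat numbers, under which 103 of 122 calls of described genes held. Deviations from the group mean were compared by correlation between each ZL rat and the ZO probiotic rats. With those of the same final digit, the mean correlations were 0.075, -0.011, 0.024 and 0.046 for C11, C13, C15 and C16. With the other ZO probiotic rats they were -0.029, 0.0087, 0.00072 and -0.027. Whether rats of the same digit were handled together was not tested, and the main model holds no block. Of the 30 genes with the largest rises and falls, *Has2* did not pass under 12 settings, among them quantile normalization, and *Plin2*, *Sord* and *Alox5* did not without C16. Without both C13 and C16, 20 of the 30 passed, and 34 of the 122 calls of described genes held. The count of 13 in the test against baseline became 34 without the lowest 30% of probe sets, 30 with 1 probe set per gene, 2 with array weights, 8 to 25 without single ZL rats, 8, 6 and 28 without the rats of the twenties, thirties and forties, 36 without Z46, and 1 without C13 and C16. The count of 1 for ZO probiotic against ZO placebo became 0 to 2 without single ZL rats, 2 without C13 and C16, and 0 with quantile normalization, 1 probe set per gene, the order of deposit as a block, and without Z46 or the rats of the twenties, forties or fifties. At baseline, 0 became 12 without moderation and 0 to 1 without single ZL rats (1 without C13 and C16). Directions turned in 4 of the described genes. With the other decimal place *Slc37a2* had 0.38. That reading would put its value on C13 below 1.58, the lowest restored value of all arrays. Without C13, where the place does not matter, it had -1.17 and did not pass (limma, adjusted p = 0.326). *Hbb-b1* had 0.18 with all arrays and -0.0054 to 0.39 without single ZL rats, and without C13 and C16 *Cd40* had 0.011 and *Insig1* -0.012. None of these 4 passed the test there. The causes of these changes were not tested.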

Other observations

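In some lists the 16 ZO probiotic rats were spread beyond both ends of the range of the ZL rats. A range over 16 rats tends to be wider than one over 4, also where groups do not differ. Other lists, such as those of chemokines and smooth muscle, had the same spread. The mean over 20 interferon-stimulated genes ranged from 6.96 in Z55 to 8.10 in Z26, against 7.17 to 7.32 in the 4 ZL rats, and 11 ZO rats lay above and 3 below all ZL rats. It was 7.01 to 8.08 in the 4 ZO rats on placebo. The mean over 8 adipose genes ranged from 5.06 in Z43 to 6.53 in Z46, against 5.34 to 5.70 in the ZL rats, and that over 4 red blood cell genes from 5.08 in Z55 to 6.72 in Z45, against 5.11 to 5.86. *Car1*, a carbonic anhydrase of the distal gut, was at 6.34, 5.86, 8.37 and 3.45 in the ZL rats and between 6.73 and 9.01 with a median of 7.99 in the ZO rats. With C15 within the range of the ZO rats, its log2 fold change of 2.01 did not pass (standard error 0.63, adjusted p = 0.0601). *Itln1*, an intelectin that binds bacterial sugars, had -1.29 (standard error 0.48, adjusted p = 0.131), with C16 at 9.62 and the ZO rats between 5.88 and 7.71 with a median of 6.70.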
